A study of Rattus norvegicus with 49 samples.

Results

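The genes described here encode the subunits of the mitochondrial respiratory chain and of the ATP synthase, with a few of the proteins that assemble or inhibit them, measured in the liver of rats given furan by mouth for 90 days. They were chosen by symbol: a gene was included when the RefSeq accession of an array probe led to a symbol starting with Nduf, Uqcr, Atp5 or Cox4 to Cox8, or with Sdh followed by a, b, c or d. The rule found 85 of the 15154 genes named on the array, covered by 107 probes, and each gene was read from the brightest of its probes. The rule used no measured value beyond that brightness, but this set of genes was picked for description with earlier results of these data known. Cyc1, Cox7a1 and Ndufa4l2 were not analysed here.

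F344 is an inbred rat strain. Rats of both sexes, aged 7 to 8 weeks at the start, were gavaged for 90 days, on 5 days a week, with furan in corn oil. The highest dose was 2 mg/kg and the others 0.5, 0.12 and 0.03 mg/kg, and controls (0 mg/kg) received the oil. RNA of each liver, labeled with Cy5, was hybridized together with a universal rat reference RNA, labeled with Cy3, so each value is a log2 ratio of liver over reference on one array of one animal. There were 5 arrays for every sex and dose except male 0.03 mg/kg, with 3 in the fit after the array of a dim hybridization, animal 26, was left out. The 48 arrays lay on 8 slides, and 37.9% to 71.1% of their liver spots were well above background, against 5.06% on the dim array. No dyes were swapped, so a dye bias of a gene cannot be told apart from its level relative to the reference, while all groups shared the same orientation.

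The chain works as a relay in the inner mitochondrial membrane. Complex I takes electrons from NADH and complex II from succinate, coenzyme Q carries them to complex III, cytochrome c carries them on to complex IV, and complex IV hands them to oxygen. Complexes I, III and IV pump protons, and the ATP synthase makes ATP as the protons flow back. Most subunits are encoded in the nucleus and are on the array, while a small set is encoded by mitochondrial DNA and lies outside the rule. Hepatocytes are rich in mitochondria, which also supply energy for urea and glucose synthesis.

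By role, the 85 genes were 31 subunits of complex I, 4 of complex II, 8 of complex III, 11 of complex IV and 14 of the ATP synthase, together 68 structural subunits. The others were the ATP synthase inhibitor Atp5if1, 9 assembly factors, 6 isoforms or gene copies that are best known from other tissues, and the pseudogene Cox6c-ps1. The liver signal was well above background on all 48 arrays for 80 of the 85 genes, and no gene was saturated on any array. Cox8b, a muscle form of a complex IV subunit, was above background on 15 arrays and Cox8c, a testis form, on 0, and these 2 genes were not tested. Of the 85 genes, 43 have a gene copy or pseudogene in the reference annotation, whose transcripts a probe may also bind.

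The liver signal of most of these transcripts was above that of the universal rat reference RNA, with the limit on dyes given above. All 68 structural subunits had a mean log2 ratio above 0, and so did 79 of the 83 tested genes, against 55.0% of all 17658 tested probes. The median log2 ratio was 1.0 for the tested genes and 0.10 for all tested probes. By complex the median was 1.07 for complex I, 1.47 for complex II, 0.88 for complex III, 1.25 for complex IV and 1.24 for the ATP synthase. The 4 genes below the reference were Atp5if1, at -1.52, the muscle isoform Cox6a2, at -1.35, the supercomplex factor Cox7a2l, at -0.72, and the complex I assembly factor Ndufaf5, at -0.35.

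The promoters of 4 genes that the results below turn on are shown first, each as the 250 bases upstream of the RefSeq transcription start on the GRCr8 assembly, read 5′ to 3′ on the gene's strand. At 2 mg/kg Atp5if1 (chr5:150026678-150026927, minus strand) was higher in males, and Uqcrc1 (chr8:118467973-118468222, plus strand) in both sexes. Ndufa11 (chr9:1637364-1637613, plus strand) and Ndufa6 (chr7:115750318-115750567, minus strand) were lower in males. Capitals mark letters that match a GC box (GGGCGG), the recognition sequence of NRF1 (the full palindrome or its core GCATGCGC) or an ETS site (CCGGAAG), on either strand.
Atp5if1: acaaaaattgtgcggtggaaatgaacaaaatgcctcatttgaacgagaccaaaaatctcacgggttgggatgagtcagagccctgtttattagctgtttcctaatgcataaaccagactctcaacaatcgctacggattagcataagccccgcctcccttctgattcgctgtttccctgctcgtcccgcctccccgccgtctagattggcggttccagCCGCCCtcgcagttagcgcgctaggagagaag
Uqcrc1: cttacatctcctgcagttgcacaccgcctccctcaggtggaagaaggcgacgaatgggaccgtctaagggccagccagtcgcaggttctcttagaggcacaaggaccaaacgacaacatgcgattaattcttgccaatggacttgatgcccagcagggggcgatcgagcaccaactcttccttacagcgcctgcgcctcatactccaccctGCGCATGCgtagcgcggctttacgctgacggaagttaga
Ndufa11: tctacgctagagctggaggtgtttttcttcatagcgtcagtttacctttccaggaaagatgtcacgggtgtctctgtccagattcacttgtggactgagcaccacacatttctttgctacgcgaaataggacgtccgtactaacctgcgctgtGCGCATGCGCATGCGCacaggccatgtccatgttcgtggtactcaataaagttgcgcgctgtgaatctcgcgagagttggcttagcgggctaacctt
Ndufa6: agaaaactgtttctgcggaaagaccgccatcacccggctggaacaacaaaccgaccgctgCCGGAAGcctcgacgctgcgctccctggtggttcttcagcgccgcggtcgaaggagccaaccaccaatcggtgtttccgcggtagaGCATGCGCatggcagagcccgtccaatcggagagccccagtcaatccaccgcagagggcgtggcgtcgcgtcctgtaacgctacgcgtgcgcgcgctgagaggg

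NRF1 and the ETS factor GABP are known as regulators of nuclear genes for mitochondria. Among the 75 genes with a promoter in the reference table, read over 300 bases around the start, the NRF1 core was found in 11, or 14.7%, against 2.47% of all 33465 promoters. The ETS letters were found in 24, or 32%, against 8.75%, and the YY1 letters AAGATGGC in 13, or 17.3%, against 3.17%. The longer NRF1 sequence, which contains the core, stood in 6, or 8%, against 0.852%, and the ERR letters AAGGTCA in 9, or 12%, against 4.61%. The GC box was in 44% of these promoters and 33.1% of all, the E box CACGTG in 8% and 6.42%, and the TATA letters TATAAA in 8% and 14.2%. Of the genes that changed in males, 0 of 7 promoters of genes that rose and 5 of 10 of genes that fell held the ETS letters, and 2 of 7 and 2 of 10 held the NRF1 core. These are letter matches in a fixed window and were not tested against binding.

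In male livers at 2 mg/kg some genes of the chain were higher and others lower. Of the 83 tested genes, 8 rose and 11 fell at an adjusted p of at most 0.05 (limma with slide as a block, Benjamini-Hochberg over all 17658 tested probes). Together these are 22.9% of the genes, beside 23.3% of all tested probes, with 12.4% of probes up and 10.9% down. The median change of the 83 genes was -0.05 on the log2 scale, beside -0.02 for all probes. The changes were small: 1 gene also passed a fold change of 1.5, beside 5.07% of all probes, and for 79 of 83 genes the whole 95% confidence interval lay within 1.5-fold in either direction. The split between rises and falls depended on the scaling. It was 5 up and 0 down with median centring in place of loess, which raised the median of all probes to 0.08 and that of the 83 genes to 0.07. The split was 11 up and 23 down with the log ratio of the scanner software, and 5 up and 16 down with the liver channel alone. Without the array of treated male 87 the counts were 7 up and 5 down, without the slide block 1 up and 2 down, and with all 49 arrays in the fit 3 up and 4 down.

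**Figure D1:**
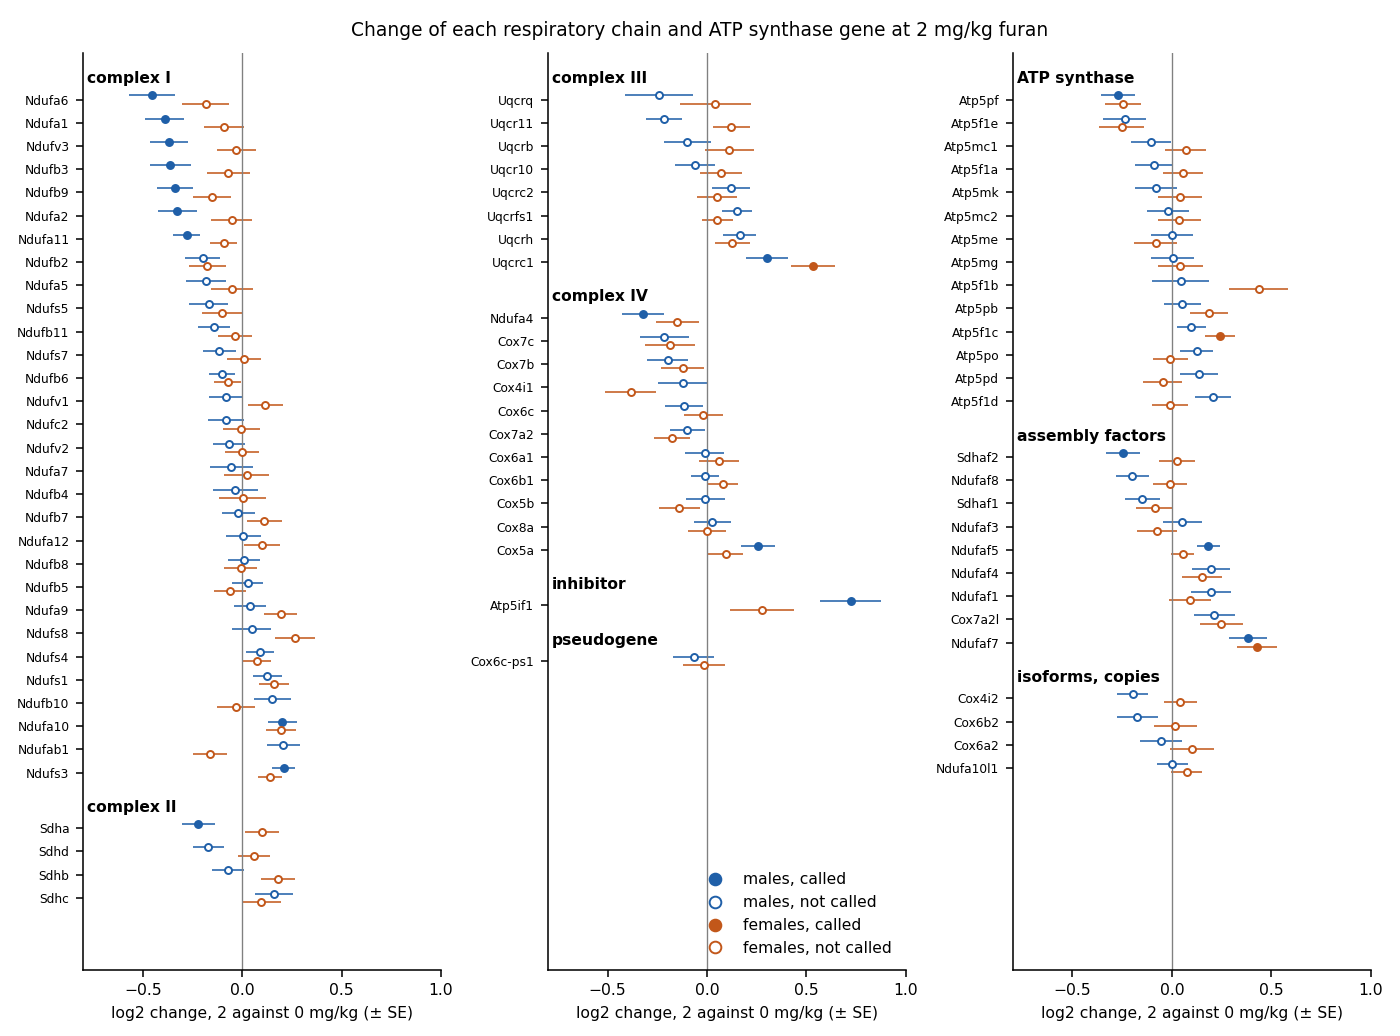
Log2 change at 2 mg/kg against 0 for 82 of the 83 tested genes, in males and in females, grouped by role, with lines for ± 1 SE and filled points for genes at an adjusted p of at most 0.05. Atp5if1 stands highest in males at 0.72 and Uqcrc1 highest in females at 0.53, while most of the other genes lie close to 0 in both sexes.

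Atp5if1, also called IF1, which binds the ATP synthase and stops it from running backwards and splitting ATP, had the largest change of the 83 genes in males. Its log2 ratios in the control males (animals 4, 2, 3, 5 and 6) were -1.65, -1.24, -1.51, -1.52 and -2.14, and in the males at 2 mg/kg (animals 86, 84, 81, 83 and 87) -1.01, -0.93, -0.97, -1.40 and -0.70. All treated males except animal 83 lay above every control. The change with slide as a block was 0.72 ± 0.15 (SE), a fold of 1.65, with an adjusted p of 0.000675 by limma. It was 0.57 to 0.88 when each of these 10 arrays was left out in turn, and the call was kept each time. On slides that held 1 control and 1 treated male, the treated animal was higher by 0.22, 0.59 and 1.44. In females the control values (animals 7, 11, 9, 2 and 4) were -1.55, -1.87, -1.52, -1.67 and -1.63 and those at 2 mg/kg (animals 90, 85, 83, 82 and 92) -1.76, -1.41, -1.63, -1.46 and -1.05. The groups overlapped, and the change of 0.28 ± 0.16 did not pass the test (adjusted p = 0.287). The sexes differed in this change by 0.45 ± 0.21, which did not pass the test either (adjusted p = 0.245).

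Complex I, the largest complex, held 3 rises and 7 falls among 31 subunits in males, beside 12.4% of all probes up and 10.9% down. The rises included Ndufs3 at 0.21 ± 0.06 (adjusted p = 0.00742) and Ndufa10 at 0.20 ± 0.07 (adjusted p = 0.0413). Ndufs3 belongs to the conserved core that complex I shares with its bacterial relatives. The falls were Ndufa6, Ndufa1, Ndufv3, Ndufb3, Ndufb9, Ndufa2 and Ndufa11, all accessory subunits that surround the core and take part in its assembly and stability. When the subunits were divided this way, a division made with the values known, 0 of 7 core subunits fell, while 1 of 24 accessory subunits rose and 7 fell. The median change was 0.05 for the core and -0.09 for the accessory subunits in males, and 0.14 and -0.04 in females, where 0 of either kind passed the test. The counts for males depend on the scaling as given above, and the difference between the kinds was not tested. Ndufa10 lost its call without control 4, 2, 3 or 6 or treated male 84, 81 or 83, with 0.17 to 0.28 over the 10 fits that each left out 1 array. Ndufa2 lost its call without treated male 87, where it stood at -0.18.

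The fall of Ndufa11, which sits in the membrane arm of complex I near its contact with complex III, had the smallest adjusted p of the falls. Its log2 ratios were 1.28, 1.06, 1.52, 1.48 and 1.17 in the control males, in the order given above, and 0.90, 1.05, 0.69, 1.22 and 0.78 at 2 mg/kg. All treated males except animal 83 lay below every control. The change was -0.28 ± 0.07 (adjusted p = 0.00197), and the treated animal was lower by 0.16, 0.43 and 0.39 on the slides with 1 of each. For Ndufa6, a subunit of the peripheral arm, the controls read 2.03, 2.53, 2.31, 2.62 and 1.24 and the treated males 2.16, 1.66, 1.38, 1.08 and 0.84. The groups overlapped through control animal 6, which shared its slide with treated animal 87, and through treated animal 86. The change was -0.46 ± 0.11 (adjusted p = 0.00351), the lowest of the 83 genes. Both calls held without any single one of the 10 arrays, and both were lost without the slide block and with median centring. With all 49 arrays in the fit Ndufa11 was lost as well. In females Ndufa11 stood at -0.09 ± 0.07 and Ndufa6 at -0.18 ± 0.12, neither past the test.

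Ndufs3, whose product is an early building block of complex I, read 1.20, 0.90, 1.26, 1.17 and 0.98 in the control males and 1.11, 1.30, 1.16, 1.61 and 1.19 at 2 mg/kg. The groups overlapped on the arrays as measured. After the slide effects were taken out, every treated male lay between 1.19 and 1.39 and every control between 1.03 and 1.12. Those effects were estimated in the same model as the call, so this separation is a description and no separate support. The call of Ndufs3 was lost under 6 of 16 alternative settings. Of the other falls in complex I, Ndufa1, a small membrane subunit, stood at -0.39 ± 0.10, Ndufv3 at -0.37, Ndufb3 at -0.36, Ndufb9 at -0.34 and Ndufa2 at -0.33. Ndufb3 lost its call without control 5 or treated male 87. A second probe of Ndufv3 changed by -0.27 (adjusted p = 0.0319) and the other by 0.00, so its fall rests on 2 of 3 probes.

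Each of the other complexes, with 4 to 14 tested subunits, held at most 1 rise and 1 fall in males. Of all probes 12.4% rose and 10.9% fell. In complex II, which is also the succinate dehydrogenase of the citric acid cycle, the flavoprotein Sdha fell by 0.22 on the log2 scale (adjusted p = 0.0489), and Sdhb at -0.07, Sdhc at 0.16 and Sdhd at -0.17 did not pass. The call of Sdha was lost under 12 of 16 alternative settings and without any of control 4, 3, 5 or 6 or treated male 84 or 87, where it ranged from -0.28 to -0.13 over all 10. In complex III 1 of 8 subunits rose, Uqcrc1, and the Rieske protein Uqcrfs1 stood at 0.15 ± 0.08 (adjusted p = 0.146). In complex IV 1 of 11 rose, Cox5a at 0.26 ± 0.09 (adjusted p = 0.0264), and 1 fell, Ndufa4 at -0.32 ± 0.10 (adjusted p = 0.0214), a protein first assigned to complex I and now known as a subunit of complex IV. Cox5a lost its call without control 4 or 2 or treated male 86 or 81, with 0.21 to 0.31 over all 10, and Ndufa4 without control 5 or treated male 84 or 87, with -0.40 to -0.22. In the ATP synthase 0 of 14 rose and 1 fell, Atp5pf, a stalk subunit, at -0.27 ± 0.09 (adjusted p = 0.0208), a call lost without control 5 or treated male 84 or 87. The catalytic Atp5f1b stood at 0.04 ± 0.14, its partner Atp5f1a at -0.09 ± 0.10 and the ring subunit gene Atp5mc1 at -0.11 ± 0.10.

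Among the 9 assembly factors Ndufaf7 and Ndufaf5 rose in males and Sdhaf2 fell. Ndufaf7 is a methyltransferase that acts early in complex I assembly. Its log2 ratios were 0.15, -0.04, -0.15, -0.40 and -0.15 in the control males and 0.39, 0.05, 0.32, 0.35 and 0.31 at 2 mg/kg. All treated males except animal 84 lay above every control, and the change was 0.38 ± 0.10 (adjusted p = 0.00369). In females the controls read -0.13, -0.39, -0.04, -0.67 and 0.26 and the treated animals 0.11, 0.28, 0.33, 0.09 and 0.46, a change of 0.43 ± 0.10 (adjusted p = 0.0117) with overlap through control animal 4. Without control female 2 the value was 0.37, with an adjusted p of 0.0594. A second probe for Ndufaf7 read 0.24 in males (adjusted p = 0.106) and 0.09 in females (adjusted p = 0.652). The brightest probe was above background in liver on 43 of the 48 arrays. Its call was lost under 4 of 15 alternative settings in males and 5 of 15 in females, there with the mean of its probes among them. Ndufaf5, another complex I factor, rose by 0.18 (adjusted p = 0.0186), a call lost without treated male 84 or control 6, and Sdhaf2, which attaches the flavin to Sdha, fell by 0.25 on the log2 scale (adjusted p = 0.0361), a call lost without control 3, 5 or 6 or treated male 83 or 87, with -0.31 to -0.17 over the 10.

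Of the isoforms best known from other tissues 0 of 4 tested passed the test in either sex. Cox4i2, a lung form, stood at -0.20 ± 0.08 in males (adjusted p = 0.067) beside -0.12 ± 0.12 for the common form Cox4i1. Cox6a2, the muscle form, stood at -0.05 ± 0.11 beside -0.01 ± 0.10 for Cox6a1, and Cox6b2, the testis form, at -0.17 ± 0.10 beside -0.01 ± 0.07 for Cox6b1. The remaining common forms were Cox7a2, at -0.10 ± 0.09, and Cox8a, at 0.03 ± 0.09.

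**Figure D2:**
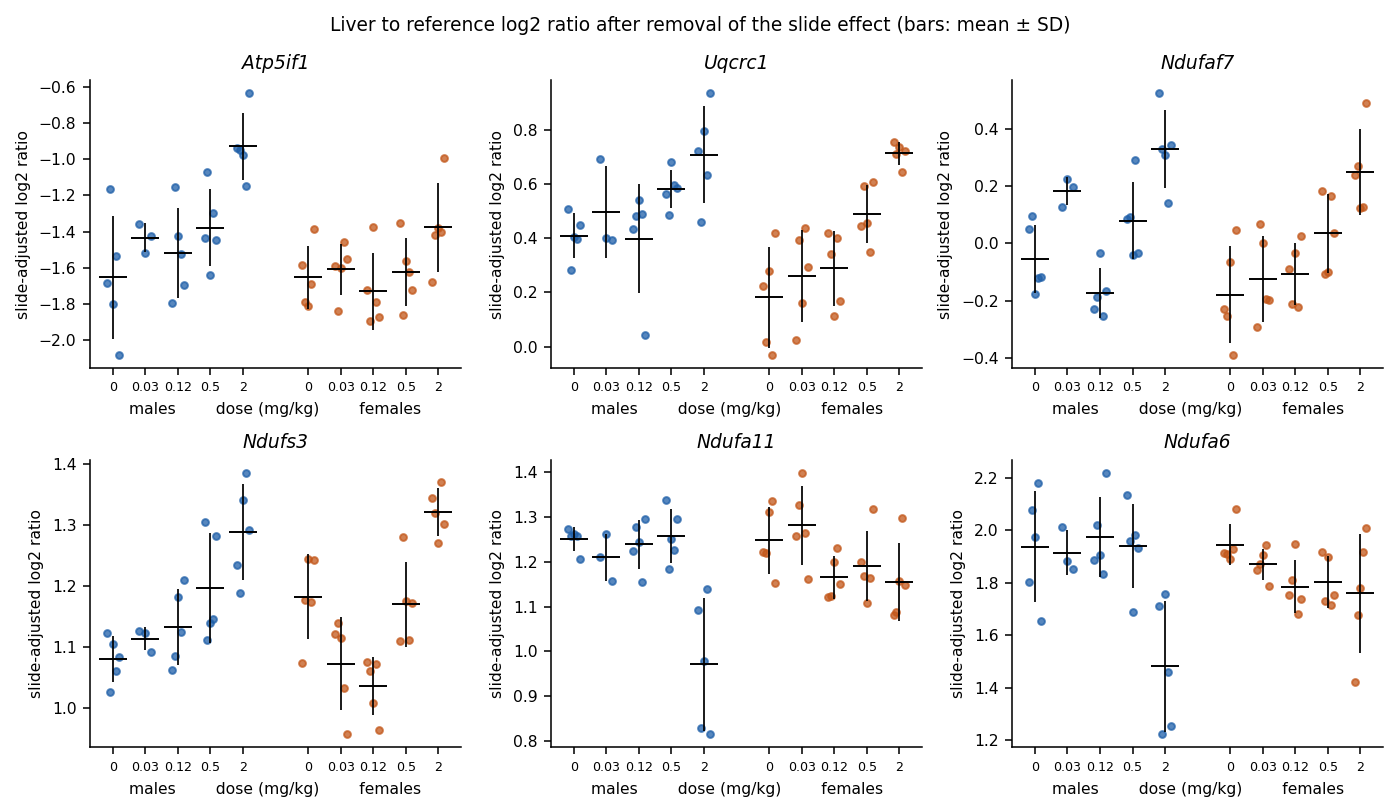
Log2 ratio of liver over reference on each array for 6 genes, by dose and sex, after the slide effects of the fit were taken out. Points are animals and bars are the mean ± SD of a group. Atp5if1 in males rises towards 2 mg/kg, Uqcrc1 in females reaches 0.64 to 0.75 at 2 mg/kg against at most 0.42 in controls, and Ndufa11 in males stays near 1.26 in controls and lies at 0.82 to 1.14 at 2 mg/kg.

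In female livers at 2 mg/kg 3 of 83 genes rose and 0 fell, 3.61% beside 5.98% of all tested probes, with 3.39% up and 2.59% down. A fold of 1.5 or more was reached by 0 of the 3, beside 1.4% of probes. The median change was 0.04, beside 0.01 for all probes, and 14 genes had an unadjusted p under 0.05 (16.9%, beside 24.0% of all probes), against 29 in males (34.9%, beside 35.1%). The sign of the median in females depended on the processing, at -0.06 with median centring, -0.01 with the scanner log ratio and 0.05 with all 49 arrays. The rises were Uqcrc1, Ndufaf7 and Atp5f1c. Uqcrc1, a core subunit of complex III, read 0.23, 0.26, 0.58, 0.08 and 0.94 in the control females and 0.99, 0.09, 1.26, 0.48 and 0.56 at 2 mg/kg. The groups overlapped widely as measured. After the slide effects were taken out the treated females lay at 0.64 to 0.75 and the controls at -0.03 to 0.42. This too is a description, since those effects were estimated in the same model as the call. The change was 0.53 ± 0.11 (adjusted p = 0.00417), kept without any single one of the 10 arrays at 0.47 to 0.61 and lost without the slide block. On the 2 slides that held 1 control and 1 treated female, the treated animal was higher by 0.74 and 0.32. In males the same gene rose by 0.30 ± 0.10 (adjusted p = 0.0338), from 0.52, 0.52, 0.71, 0.51 and 0.28 to 0.96, 0.57, 0.18, 1.16 and 0.77, a call lost without control 2 or 5 or treated male 86, 81 or 87. The rise of Atp5f1c, the rotating shaft of the ATP synthase, was 0.24 ± 0.07 (adjusted p = 0.0476) and was lost when any array but that of control 4 was left out, with 0.21 to 0.27 over all 10. Without control female 2, 1 of the 3 rises was left.

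Close to the threshold in females stood Cox4i1, which regulates complex IV by binding ATP, at -0.38 ± 0.13 (adjusted p = 0.0629), and Atp5f1b at 0.44 ± 0.15 (adjusted p = 0.0686). Cox4i1 passed with slide as a random block, with no slide block, with median centring, with the scanner log ratio and with array weights. Its measured log2 ratios were 1.59 to 2.00 in the control females and 0.99 to 1.35 at 2 mg/kg, with no overlap. Over all 83 genes, the measured arrays of a female gene lay wholly above controls for 1 gene, Cox6a2, whose liver signal was above background on 1 of the 5 arrays at 2 mg/kg, and wholly below for 2, Cox4i1 and Ndufab1, beside 4% of all probes. In males this held for 0 genes, beside 4.26% of probes. With the slide effects of the fit taken out, the groups lay apart for 6 genes in males, beside 16.7% of probes, and for 9 in females, beside 10.5%.

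The sexes were not shown to differ in their response. For the change in males minus the change in females 0 of 83 genes passed by limma, beside 1.85% of all probes, and 11 had an unadjusted p under 0.05 (13.3%, beside 18.9% of all probes). Without treated male 86, 1 gene passed, higher in males. The smallest adjusted p was that of Ndufab1, the acyl carrier protein of the mitochondrion, at 0.0757, for a difference of 0.37 ± 0.11, and its probes disagreed, 0.21 for the brightest and -0.18 for the other in males. Uqcrc1 and Ndufaf7 were called in both sexes. All 8 rises in males had a positive change in females, and 9 of the 11 falls a negative one, while 53 of all 83 genes had the same sign in both sexes. The changes of both sexes came from 1 fit with shared slide effects, so these counts are a description. The share of all probes with the same sign was not counted.

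At 0.03, 0.12 and 0.5 mg/kg 0 of 83 genes were called in males, beside 0%, 0.561% and 0.606% of all probes, and 1, 1 and 4 had an unadjusted p under 0.05 (1.20%, 1.20% and 4.82%, beside 4.12%, 6.54% and 11.2% of all probes). In females 0 were called at each dose, beside 0.0227%, 0.017% and 0.0453%, and 3, 16 and 11 had an unadjusted p under 0.05 (3.61%, 19.3% and 13.3%, beside 6.47%, 8.45% and 15.2% of all probes). At 0.12 mg/kg 73 of the 83 genes were below control in females, with a median of -0.13 beside -0.03 for all probes, including 30 of 31 complex I and 11 of 11 complex IV subunits. In males at that dose 19 of 83 were below and the median was 0.05, with 11 of 11 complex IV subunits above control. The genes varied together from animal to animal, so these counts are a description, and the share of all probes below control was not counted. On slides 5 to 8, where the subunits read lower, lay 3 female arrays of that dose beside 1 female control, and 2 male arrays beside 1 male control. Atp5if1 in males stood at 0.22, 0.13 and 0.27 for the 3 doses in order, and Atp5f1b in females at 0.45 ± 0.14 at 0.5 mg/kg (adjusted p = 0.122). Uqcrc1 in females stood at 0.31 ± 0.11 at 0.5 mg/kg (adjusted p = 0.148).

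**Figure D3:**
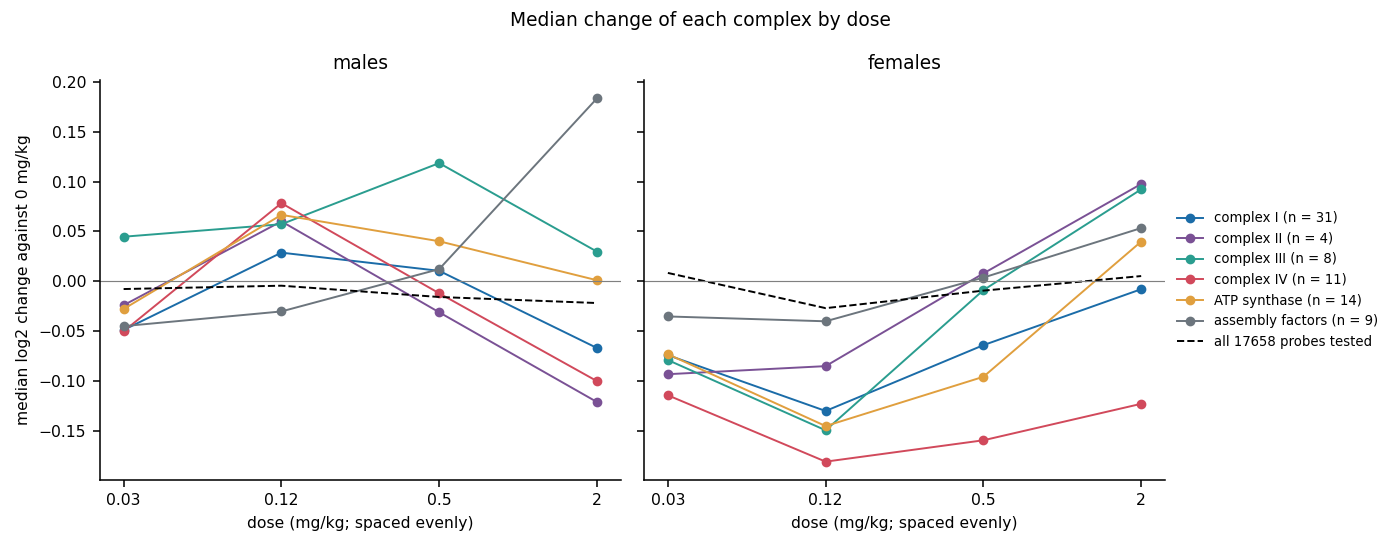
Median log2 change against control of the genes of each complex and of the assembly factors at each dose, in males and in females. The dashed line is the median of all 17658 tested probes. Complex IV in females reads -0.18 for 0.12 mg/kg and -0.12 for the top dose, while the assembly factors in males reach 0.18 at 2 mg/kg.

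A contrast over the 5 dose groups in order, in log2 units per dose step, called 17 genes in males, 8 up and 9 down, beside 24.4% of all probes (12.8% up, 11.7% down), and 8 in females, 7 up and 1 down, beside 11.9% (5.11% up, 6.78% down). In males Atp5if1 led at 0.15 ± 0.03 per step (adjusted p = 0.00174), followed by Ndufs3 at 0.05, Ndufv3 at -0.08, Ndufa11 at -0.05 and Ndufa6 at -0.09. Since Ndufa11 and Ndufa6 stood at 0.01 and 0.00 at 0.5 mg/kg, the difference lay at the top dose. In females Uqcrc1 led at 0.13 ± 0.02 per step (adjusted p = 0.00142), then Ndufaf7 at 0.10, Cox4i1 at -0.11 (adjusted p = 0.0135), Atp5f1b at 0.12 (adjusted p = 0.0165), Atp5f1c at 0.06, the complex I subunits Ndufa9 at 0.06 and Ndufs8 at 0.07, and Ndufs1 at 0.05. Without treated male 84, and likewise without treated male 87, 9 genes were called in males, and without control female 2, 4 in females. With median centring the count was 11 up and 0 down in males.

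Untreated males and females differed in 9 of the 83 genes, 3 higher and 6 lower in males, or 10.8% beside 21.7% of all probes (11.4% up, 10.3% down). Cox6c, a complex IV subunit, was lower in males by 0.44 on the log2 scale, with a mean of 1.28 in males and 1.68 in females (difference male minus female -0.44 ± 0.09, adjusted p = 0.000537). Its pseudogene Cox6c-ps1 differed by -0.31, with 0.77 in males and 1.10 in females, and the probes of both may share transcripts. Atp5po, the stalk subunit that gives oligomycin sensitivity, differed by -0.34 ± 0.08. Ndufab1 at -0.26, Ndufv2 at -0.23 and the complex III hinge protein gene Uqcrh at -0.22 were also lower in males. The higher genes were Cox6a2, at 0.41, Ndufaf4, at 0.34, and Cox6b2, at 0.32. The liver signal of Cox6a2 was above background on 4 of 5 control arrays of each sex but on only 23 of all 48 arrays. Leaving aside the 10 fits without 1 control array, its call was lost under 7 of 15 alternative settings, with a lowest value of 0.04, and that of Cox6b2 under 6 of 16, with a lowest value of 0.01. Uqcrh lost its call under 10 of 16 settings, Ndufv2 and Cox6c-ps1 under 7 each, and Ndufab1 under 5, the mean of its probes among them, where the value nearest to 0 was -0.09. Ndufaf4 and Cox6c lost theirs under 4 each and Atp5po under 1, a required fold change of at least 1.5. In the 10 fits without 1 control array Uqcrh lost its call in 8 and Ndufv2 in 6. Without control male 2 the count was 4 and without control female 9 it was 5. With median centring 1 gene was higher and 37 were lower in males.

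The level of these genes differed between the slides on which the livers were hybridized. Slides 1 to 4 lay above slides 5 to 8, a division chosen after the values were seen. The median of the 68 structural subunits relative to controls was -0.01, 0.10, 0.08 and 0.05 on the first set and -0.38, -0.27, -0.31 and -0.35 on the second. Estimated within groups, the shift from the first to the second set had a median of -0.36, negative for 58 of 68 subunits, beside -0.12 for all probes. It was -0.54 for complex IV, -0.49 for complex III, -0.41 for the ATP synthase, -0.31 for complex I and -0.19 for complex II. Mitochondrial ribosomal protein genes shifted by -0.13 and hepatocyte markers by -1.12. The size of the shift beside all probes depended on the scaling. With the scanner log ratio the subunits shifted by -0.12, less than the -0.18 of all probes, with median centring by -1.52 beside -0.73, and in the liver channel alone by -0.05 beside -0.04. That channel was first given the same distribution of values on every array (quantile normalization), which takes out level differences between whole arrays. Liver spots well above background had a median share of 64.4% on slides 1 to 4 and 49.2% on slides 5 to 8, while reference spots stood at 74.4% and 74.6%. Their part in the shift was not tested.

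The slides were not balanced over dose. Of the 5 controls of each sex, 4 lay on slides 1 to 4, and of the animals at 2 mg/kg 2 males and 1 female did. Without the block the median of the 83 genes at 2 mg/kg was -0.17 in males and -0.17 in females, beside -0.04 and -0.08 for all probes, and with it -0.05 and 0.04. Where a slide held a control and a treated male, on slides 2, 4 and 8, the called rises were positive for 8 of 8, 8 of 8 and 6 of 8 genes, and the called falls negative for 8 of 11, 11 of 11 and 11 of 11. Of the 64 genes not called, 40, 13 and 35 were positive, with medians of 0.06, -0.25 and 0.01, so on slide 4 most of these were lower as well. These arrays also entered the fit that made the calls, so the counts of called genes are a description. With slides 5 and 6, which held no control, left out, an alternative chosen after the data were seen, 4 genes rose and 11 fell in males and 2 rose in females.

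**Figure D4:**
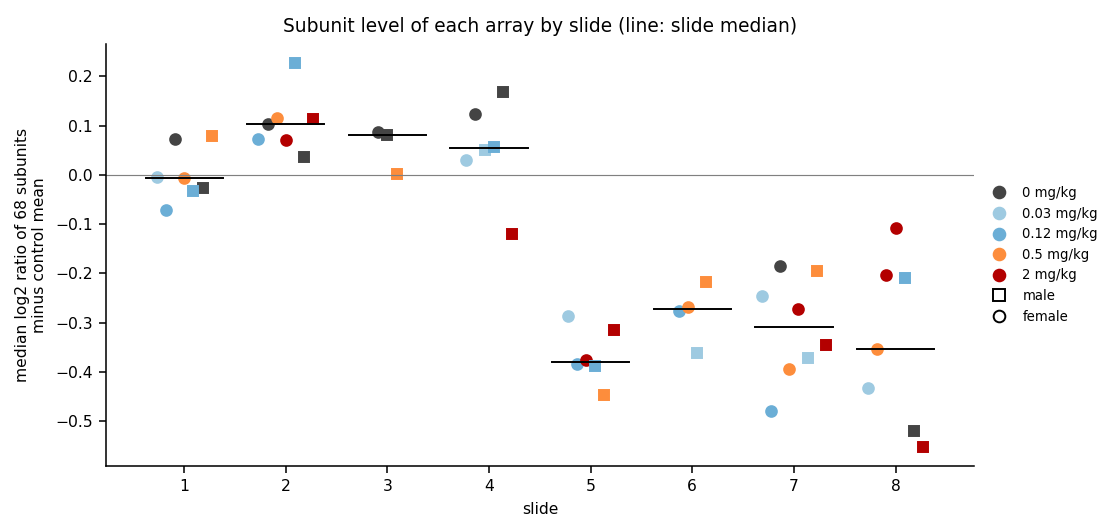
Median log2 ratio of the 68 structural subunits on each of the 48 arrays, relative to the control mean, by slide, with dose as color, sex as marker and the slide median as a line. All arrays on slides 5 to 8 lie at or below -0.11 whatever their dose, and slides 1 to 4 lie between -0.12 and 0.23.

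After dose group and slide were taken out, the genes of the chain still varied together from animal to animal. The median correlation of residuals over 48 arrays was 0.31 between 2 tested genes of the chain, beside 0.02 between such a gene and the other tested probes. It was 0.50 within complex IV, 0.49 within complex II, 0.47 within the ATP synthase and 0.37 within complex I, but 0.18 among assembly factors and 0.10 within complex III. These are descriptions, since the arrays share the reference RNA and the genes of an array share the loess fit of that array. The residual SD was 0.137 by median for these genes and 0.166 for all tested probes.

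The wider mitochondrial pathways are given by lists whose genes were named with earlier results known. At 2 mg/kg in males, of 32 other assembly factors 6 rose and 2 fell, or 25% beside 23.3% of all probes (12.4% up, 10.9% down). The rises included Lyrm7, a complex III factor, at 0.48, and the complex IV factors Coa3 at 0.45 and Cox11 at 0.40, and the falls were Pet100 at -0.35 and Cox16 at -0.32. For coenzyme Q synthesis 5 of 12 rose, among them Coq4 and Coq8b at 0.41, and 1 fell, Coq8a at -0.52. For exchange of nucleotides and phosphate across the mitochondrial membranes 4 of 8 rose and 0 fell. The largest change there was Slc25a4, the adenine nucleotide carrier best known from heart and muscle, at 1.32 ± 0.21 (adjusted p = 2.05e-05), beside 0.34 for Slc25a5, the form common in liver. In females Slc25a4 stood at 0.10 ± 0.21 and Slc25a5 rose by 0.48 ± 0.09.

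In the citric acid cycle list 3 of 16 rose in males, citrate synthase (Cs) at 0.46, Dlst at 0.41 and Idh3b at 0.21, and 2 fell, Fh at -0.39 and Suclg2 at -0.38. Beside this list and those that follow, 12.4% of all probes rose and 10.9% fell in males. Of 66 mitochondrial ribosomal proteins 14 rose, Mrpl38 by 0.61, Mrpl12 by 0.45 and Mrps2 by 0.43, and 3 fell, Mrpl14 at -0.57 being the lowest. Of 15 regulators of mitochondrial genes Esrra at 0.36 and Tfb2m at 0.33 rose and Gabpb1, the partner of Gabpa in the ETS factor named above, fell at -0.38, while Nrf1 stood at 0.02 ± 0.09 and Gabpa at -0.10 ± 0.07. Of 7 oxidant defence genes 0 rose and Nnt fell at -0.31. In females the counts up and down were 2 and 0 for assembly factors, 1 and 0 for coenzyme Q synthesis, 2 and 0 for exchange, 1 and 0 for the citric acid cycle, 4 and 0 for ribosomal proteins, 2 and 1 for regulators, and 1 and 0 for oxidant defence. Beside these small counts, 3.39% of all probes rose and 2.59% fell in females. The lists were not tested against the shares of all probes in either sex. The regulators called in females were Polg at 0.47, Tefm at 0.40 and Gabpb1 at -0.36.

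**Figure D5:**
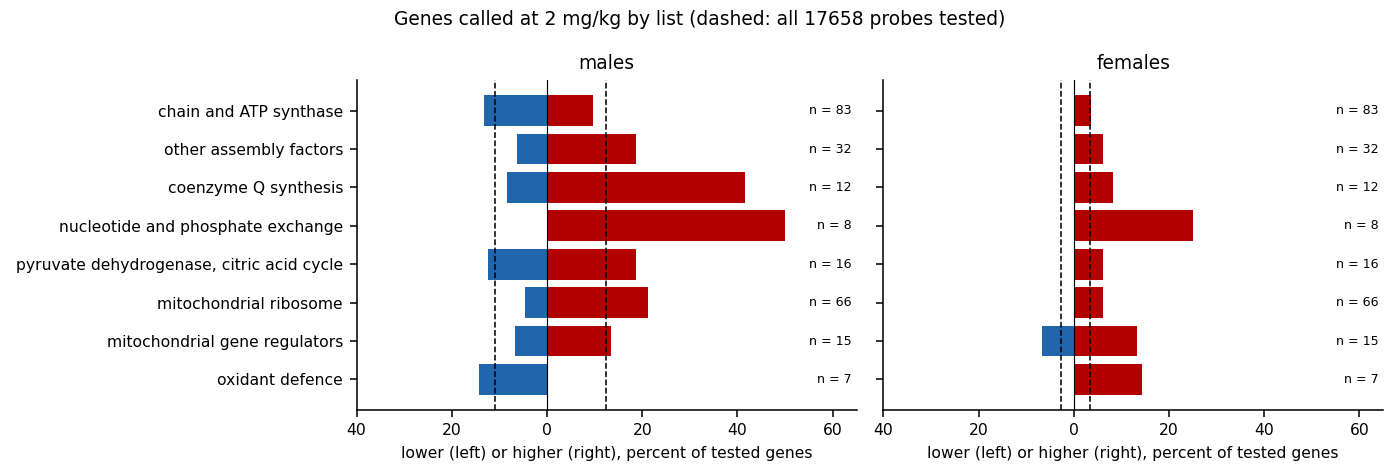
Genes that rose (right) or fell (left) at 2 mg/kg in males and females, in percent of the tested genes of the chain and of each wider mitochondrial list, with dashed lines for all tested probes. In males 5 of 12 coenzyme Q genes and 4 of 8 exchange genes rose, and of the 83 genes of the chain 8 rose and 11 fell.

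Some markers of cell types moved in males at the same dose, and in bulk tissue fewer cells of a type cannot be told apart from less RNA per cell. All 10 hepatocyte markers were well above background on all 48 arrays. In males 7 of 10 fell, with a median of -0.42, and their mean log2 ratio with slide effects taken out lay at 6.66 to 6.99 in controls and 6.29 to 6.53 at 2 mg/kg. Of 6 bile duct markers 4 rose, with a median of 0.72, from -1.47 to -1.04 in controls and -0.96 to -0.03 at 2 mg/kg. Of 9 stellate cell and fibroblast markers 3 rose, at -1.77 to -1.24 in controls and -1.49 to -0.24 at 2 mg/kg, while 3 of 10 Kupffer cell markers and 3 of 5 red cell markers fell. Of all probes 12.4% rose and 10.9% fell in males, and 3.39% and 2.59% in females. The 6 sinusoidal endothelial markers lay at 1.49 to 2.41 in control males and 1.79 to 2.33 at 2 mg/kg. The 5 lymphocyte and granulocyte markers lay at -0.99 to -0.48 and -0.79 to -0.60, both lists slide-adjusted. In females 0 of 10 hepatocyte markers changed, with a median of -0.12, and their slide-adjusted mean lay at 6.54 to 6.77 in controls and 6.45 to 6.62 at 2 mg/kg. Of the 6 bile duct markers 1 rose in females, with a median of 0.41, and their mean lay at -1.24 to -0.98 in controls and -0.91 to -0.52 at 2 mg/kg as measured, without overlap, and at -1.21 to -0.98 and -0.98 to -0.52 with the slide taken out. Of the muscle markers Tnni2 was above background on 36 of 48 arrays, Mb on 35, Actn3 on 20, Tnnt3 on 16, Ckm on 3, Myh4 on 1 and Pvalb on 0. Of the adipocyte markers Cidec and Cidea, which liver also expresses, were above background on all 48 arrays, Adipoq on 2, Lep on 1 and Ucp1 on 0. Of the 3 muscle and 2 adipocyte markers tested 0 changed in either sex. The part of these shifts in the results above was not tested.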

How the data were processed

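Agilent 2-color arrays were read from the scanner files deposited for each animal. Per the file headers the authors used Feature Extraction 10.7.3.1, and its intensity columns (median signal and median background of each channel, with no normalization between arrays) were the starting point. The deposited scanner log10 ratio, processed by that software, served as an alternative, as did the series matrix of log2 ratios that the authors normalized, whose columns best matched their own array for 7 of 49 arrays and another array of the same sex and dose for 40, so it was fitted without slide. The other deposited values used were the marks, 0 or 1, for flagged, saturated and well above background spots.

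In R 4.3.3 with limma 3.58.1, signals were corrected by normexp (offset 50) and loess within each array, control spots got no weight, flagged spots were dropped and spots of a probe averaged. Symbols came from RefSeq (GRCr8) for 18004 of 30367 probes (59.3%). Probes detected above background on 4 or more arrays in 1 group or more (17658) were tested, and in the male 0.03 mg/kg group 3 arrays sufficed. They entered 1 fit of 10 groups with slide as a block, on 48 arrays. p-values were adjusted over all tested probes (Benjamini-Hochberg) and measure the spread between animals. Fold changes are on the log2 ratio scale, and the number of arrays limits the precision. The fit was tested on simulated data. The members follow a symbol rule that used no measured change, but the set to describe and the lists were chosen with earlier results of these data known. Named were up to 6 called genes in each direction for each sex, for control sex differences and for the interaction, and genes fixed for their role. Other called genes were named after their values were seen. The alternatives covered slide, scaling, background, filter, probe choice, array weights and each animal left out. The liver channel alone was quantile normalized between arrays. For 1 gene of the chain the values are counted but not reported here by name.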

Additional observations from a re-analysis of the deposited data

Results flagged for a closer look

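Outliers were looked for in up to 6 genes called at 2 mg/kg in each direction and sex, those with the smallest adjusted p. The other called genes were not examined. Among these 30 groups of 5 arrays, 3 held a value far from the other 4, and chance gives about 1 in 20 groups. The Ndufaf7 log2 ratio of male 84 at 2 mg/kg was 0.0475, below the 0.308 to 0.389 of the other 4 treated males. In control male 6 Ndufb9 stood at 1.03, below 1.37 to 1.46, and Ndufv3 at 1.64, below 2.43 to 2.73. Control male 6 was the control hybridized on slide 8. The calls of Ndufaf7, Ndufb9 and Ndufv3 in males held when each of the 10 arrays, these included, was left out in turn.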

How the results depend on the processing

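Counts of called genes are given here for males and females at 2 mg/kg (19 and 3), the trend in each sex (17 and 8), the sex difference in the response (0) and untreated males against females (9). Without the slide block they were 3, 1, 2 and 3 for the first 4 and 2 for untreated animals, and with all 49 arrays 7 in males, 6 and 4 for the trends and 5 for untreated animals. Without the slide block on all 49 arrays, an alternative chosen after the data were seen, they were 1, 0, 0, 2 and 1 in the same order, and with the series matrix and no slide block, chosen likewise, 3, 1, 4, 3 and 1. Median centring gave 5 in males, 11 and 3 for the trends and 38 for untreated animals. The scanner log ratio gave 34 in males, 6 in females and 13 for the female trend, and the liver channel alone 1 for the sex difference in response and 4 for untreated animals. Array weights gave 9 in females, 14 for the female trend, 17 for untreated animals and 4 for the lower doses in females, where 0 were called otherwise. With a fold of at least 1.5 required as well they were 1, 0, 0, 0 and 0. The cause was not tested.

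Leaving out 1 animal at a time gave 12 to 20 in males, 1 to 4 in females, 9 to 18 and 4 to 12 for the trends, 0 to 1 for the sex difference in response, 4 to 12 for untreated animals and 0 to 0 for the lower doses in each sex. Animal numbers recur between the sexes and mark no shared animal, and with the number as a replicate block the counts were 18 in males and 3 in females (correlation 0.021). No background correction, another filter on dim probes, the mean of a gene's probes, a random slide block and leaving out slides 5 and 6 kept all 8 counts within 1.5 times. These counts join rises and falls, so a count could not reverse and says nothing on direction. The split did change with the setting. In males at 2 mg/kg it was 8 up and 11 down, and 7 up and 5 down without treated male 87. It also changed with median centring, as given above. The series matrix with slide as a block was not run. For Atp5if1 in males the call was kept under 15 of 16 alternatives, at 0.59 to 0.81, and was lost without the slide block on all 49 arrays (adjusted p = 0.0525).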
